A study of Homo sapiens with 15 samples.

Results

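The NF-kB subunit genes and the genes of their feedback inhibitors are described here across 5 groups of A549 cells, a human lung carcinoma line. The 10 genes are NFKB1, NFKB2, RELA, RELB and REL, which encode the subunits, and NFKBIA, NFKBIB, NFKBIE, TNFAIP3 and TNIP1, which encode inhibitors. They are 10 of 19775 genes that had a probe set with a single gene symbol on the Affymetrix HG-U133 Plus 2.0 array. All probe sets with exactly 1 of these symbols were taken, which gave 22 of the 54675 in the table. The brightest of each gene over the 15 arrays stands for the gene, and the other 12 are shown beside it.

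Cells attached for 24 h and were then exposed to geldanamycin, an inhibitor that occupies the nucleotide site of HSP90, a chaperone for many kinases, or to DMSO as vehicle. At 24 h the groups were geldanamycin at 40 nM and vehicle, and at 48 h they were vehicle, geldanamycin at 10 nM and geldanamycin at 40 nM, each with 3 arrays. The submitters give 40 nM as the IC50 and 10 nM as the IC20, and the DMSO of the vehicle as 0.4%. Values are log2 expression values made by RMA, so that a difference of 1 is a 2-fold change.

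NF-kB is a family of transcription factors that act as dimers and drive inflammatory, survival and stress genes. In resting cells IkB proteins hold the dimers in the cytoplasm, until the IkB kinase marks them for degradation and the dimers enter the nucleus. A second, slower branch processes the precursor encoded by NFKB2 and works through RELB. Several genes that NF-kB switches on encode its own brakes, among them NFKBIA and TNFAIP3, and NFKB1, NFKB2, RELB and REL are known targets too. Airway and alveolar epithelial cells use this pathway to make chemokines.

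The known binding sequence of NF-kB, the kB consensus of 10 bases, begins with GGG and ends with CC and allows a choice of bases between them. RefSeq promoter windows (build GRCh38.p14, 250 bases before to 50 after a start) were found for 8 of the 10 genes. RELB and NFKBIE are named only. Of these 8 genes 7 held a match on either strand in at least 1 window, namely all but RELA. A match was present in 8 of the 14 windows of these genes, against 5.91% of 35116 windows of the same length over all genes. By gene, the share over all 27305 genes was 7.09%. A match is a description of letters, and binding was not measured.

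NFKBIA is shown at length because it had the largest change of the 10 at 24 h, and the 250 bases upstream of that start are printed on the gene's strand (chr14:35404750-35404999, minus strand). Capitals mark the match, which reads as the consensus on the opposite strand and lies at positions -81 to -72 from the start.
NFKBIA: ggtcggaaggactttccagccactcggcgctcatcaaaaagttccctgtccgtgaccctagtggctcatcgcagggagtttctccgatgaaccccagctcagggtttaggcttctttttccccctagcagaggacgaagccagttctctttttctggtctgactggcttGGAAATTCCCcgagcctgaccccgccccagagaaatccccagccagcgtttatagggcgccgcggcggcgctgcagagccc

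Shorter stretches of 30 bases show the matches of the other genes, so that the sites can be compared letter by letter, with matches in capitals. They lie at chr6:137867188-137867217 for TNFAIP3 (plus strand, 2 matches), chr5:151081057-151081086 for TNIP1 (minus strand) and chr4:102501300-102501329 for NFKB1 (plus strand). Those of REL are at chr2:60881518-60881547 (plus strand), of NFKB2 at chr10:102394462-102394491 (plus strand), the first of 4 stretches of that gene, and of NFKBIB at chr19:38899932-38899961 (plus strand).
TNFAIP3: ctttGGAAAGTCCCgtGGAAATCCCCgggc
TNIP1: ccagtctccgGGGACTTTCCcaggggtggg
NFKB1: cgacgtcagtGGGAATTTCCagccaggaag
REL: gtcagccgcGGGAAATTCCCctcccgccag
NFKB2: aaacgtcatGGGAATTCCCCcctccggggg
NFKBIB: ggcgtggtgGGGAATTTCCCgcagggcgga
In REL, NFKB2 and NFKBIB the capitals span 11 bases, because matches on both strands overlap. NFKBIB holds a match as well, and the values of its probe sets are given below.

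One limma model with a mean for each group covered the 15 arrays. Its p-values are two-sided and adjusted by Benjamini-Hochberg over the 19775 genes. A change counts as called at an adjusted p under 0.05. Errors after "±" are standard errors of that fit for log2 changes and SD over 3 arrays for levels. The labels do not say that replicates were separate cultures, and if they were not, the p-values reflect technical spread alone. In RNA from whole cultures, a change in the number of cells with a transcript and a change per cell cannot be told apart. The mean over all probe sets was 5.13 on the 24 h vehicle arrays and 5.52 on the 48 h ones, while arrays of one time differed little in it. Levels at the 2 times are therefore given side by side without a test.

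The 10 nM arrays stand apart in their control probe sets. The 24 probe sets of poly-A spike controls, bacterial RNAs added before labelling, averaged 3.37 ± 0.04 on the 10 nM arrays, against 5.93 ± 0.06 on the 48 h vehicle arrays. The 3' minus 5' difference of the ACTB controls was 2.68 ± 0.03 at 10 nM, against 0.35 ± 0.06 in vehicle, while that of GAPDH was 0.13 ± 0.004 against 0.15 ± 0.03. At 40 nM and 48 h the spike mean was 5.81 ± 0.08 and the ACTB difference 0.44 ± 0.03. The part of these differences in the 10 nM results below was not tested. With the 10 nM arrays left out of the fit, 7 of the 10 genes were called at 40 nM and 24 h and 8 at 40 nM and 48 h, the same numbers as with them (6034 and 3971 of all genes). The change between the times was then called in 6 of the 10 in place of 7 (3152 of all genes).

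Markers of epithelium were present, with KRT18 at 13.90 at 40 nM and 13.59 in vehicle at 48 h, but EPCAM was low, at 5.63 and 5.22. Of 6 epithelial markers 5 were called higher and 1 lower at 40 nM at each time, with median changes of 0.54 at 24 h and 0.40 at 48 h. At 10 nM 2 were called higher and 2 lower. Over all genes 14.8% were called higher and 16.7% lower at 40 nM and 24 h. At 48 h these shares were 10.5% and 10.7% at 40 nM, and 14.4% and 11.9% at 10 nM. The same shares apply to the counts of the other marker lists. All 7 endothelial markers lay below the median gene in each group, with the list's mean between 3.75 and 4.16. Of 6 measured leukocyte markers, 5 at 40 nM and 6 in vehicle lay below the median gene at 48 h, and the pan-leukocyte marker PTPRC stood at 3.56 and 3.47. At 40 nM and 48 h 2 leukocyte markers were called higher than in vehicle and CD14 was the brightest of that list, at 6.38. At 10 nM 2 were called higher too, and at 40 nM and 24 h 1 was called lower. Among 7 fibroblast markers 1 was called higher and 1 lower at 40 nM and 48 h, close to the shares over all genes. At 40 nM and 24 h 2 were called higher, and at 10 nM 3 were called lower. Of these 7, 6 at 40 nM and 5 in vehicle lay below the median gene at 48 h. COL1A1 was the brightest of them, at 8.78 and 8.44. The part of these markers in the results was not tested.

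After 24 h at 40 nM, 7 of the 10 genes were called higher than in vehicle by limma and 0 lower (1, RELA, at an unadjusted p under 0.05). Over all genes 14.8% were called higher, 16.7% lower and 31.5% in either direction. The inhibitor gene NFKBIA had the largest change of the 10, a 2.43-fold rise, followed by NFKB2 (2.02-fold), TNFAIP3 and REL (both 1.89-fold). NFKBIE, RELB and TNIP1 rose by less, 1.33-fold, 1.24-fold and 1.21-fold. NFKB1, RELA and NFKBIB did not pass. The median log2 change of the 10 was 0.36, beside -0.0072 over all genes. In 7 of the 10 the arrays of the groups did not overlap, all of them higher, against 17.9% of all genes higher, 19.7% lower and 37.6% either way.

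After 48 h at 40 nM, 8 of the 10 were called higher than in vehicle by limma and 0 lower (also 0 at an unadjusted p under 0.05), against 10.5% of all genes higher, 10.7% lower and 21.3% either way. TNFAIP3 rose most, 4.41-fold, and RELB, NFKBIA, NFKBIE and TNIP1 rose 2.98-fold, 2.96-fold, 2.88-fold and 2.62-fold. NFKB2 (1.70-fold), NFKB1 (1.34-fold) and REL (1.31-fold) rose less, and RELA and NFKBIB did not pass. The median log2 change of the 10 was 1.08, beside -0.016 over all genes. The groups did not overlap in 9 of the 10, with 8 higher and RELA lower, against 17.9% of all genes higher, 20.8% lower and 38.8% either way. The 7 genes called at 24 h were all called higher at 48 h too. Of all genes 2927 were called higher at 24 h, and 1234 of these were called higher at 48 h too. Thus 7 of the 10 were called higher at both times, against 6.24% of all genes.

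**Figure D1:**
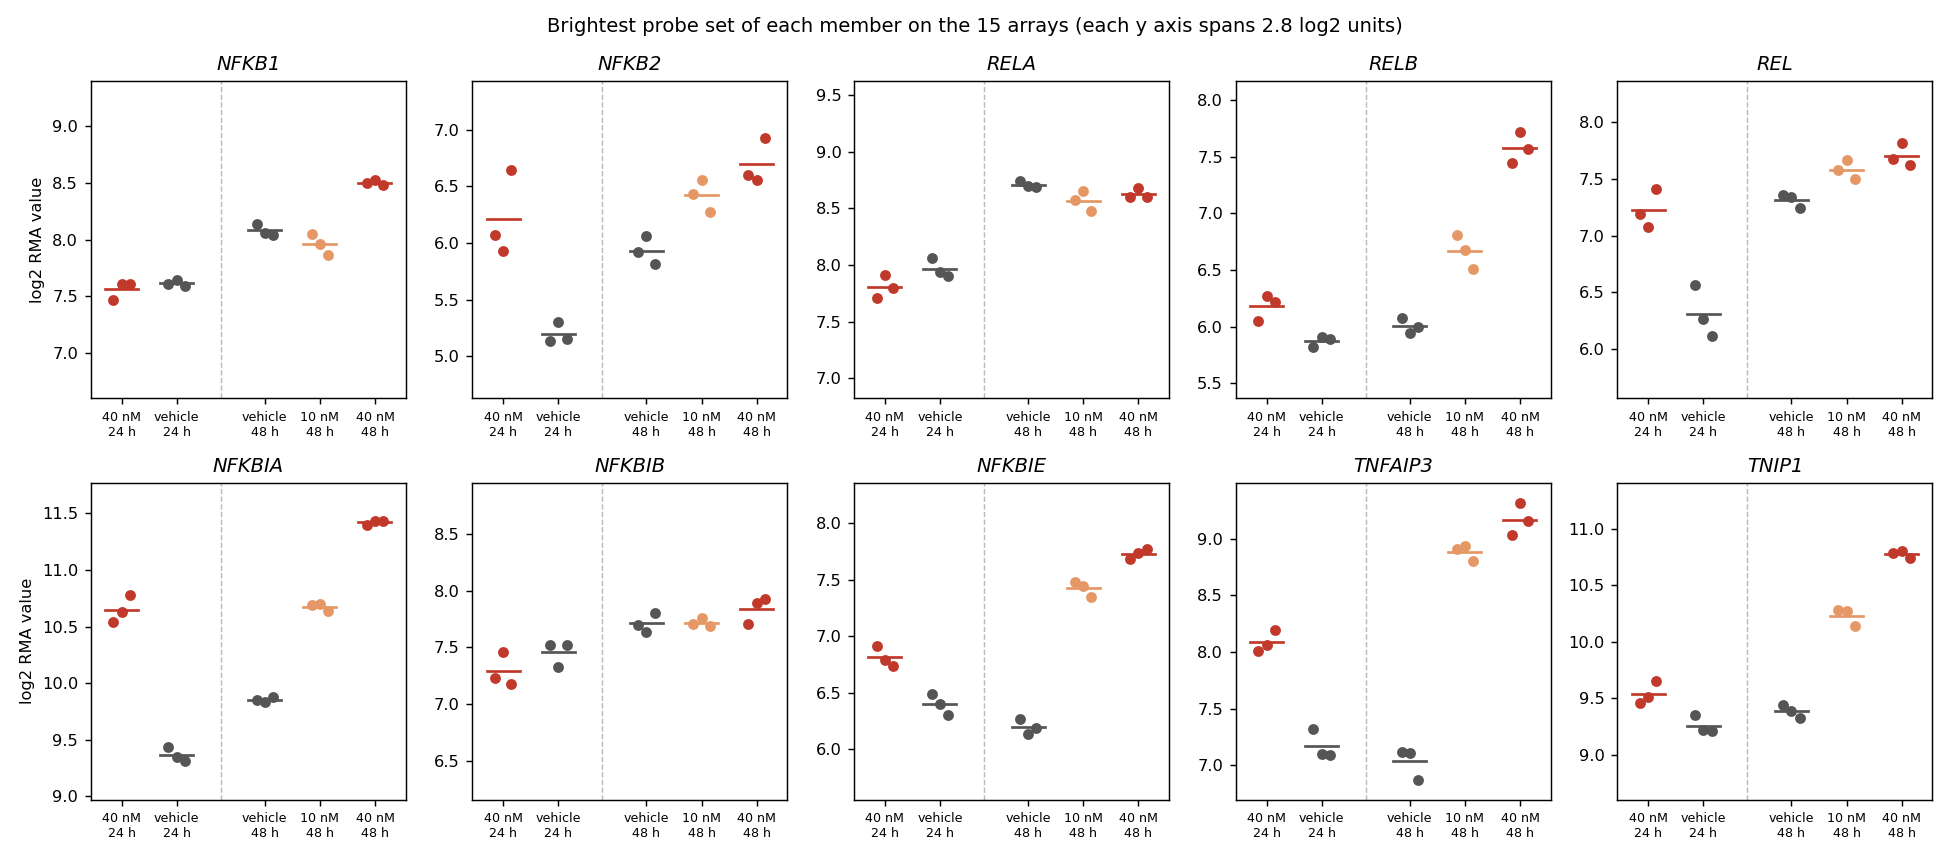
Log2 RMA value (y axis) of the brightest probe set of each of the 10 genes on every array, by group (x axis), with 24 h left and 48 h right of the dashed line; points are arrays and short lines group means. At 48 h RELB, NFKBIA, NFKBIE, TNFAIP3 and TNIP1 step up from vehicle to 10 nM to 40 nM without overlap, while RELA and NFKBIB stay nearly level.

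NFKBIA encodes IkB-alpha, the inhibitor that NF-kB resynthesises soon after activation. Its log2 values at 24 h were 10.54, 10.63 and 10.78 at 40 nM, against 9.44, 9.35 and 9.31 in vehicle, a change of 1.28 ± 0.06 (limma adjusted p = 2.79e-09). At 48 h they were 9.85, 9.83 and 9.88 in vehicle, 10.69, 10.7 and 10.64 at 10 nM, and 11.4, 11.43 and 11.43 at 40 nM. The 3 groups at 48 h lay in rising order and their arrays did not overlap. The changes against vehicle were 0.82 ± 0.06 at 10 nM and 1.57 ± 0.06 at 40 nM (limma adjusted p = 2.51e-07 and 8.41e-10). These values come from probe set 201502_s_at, which is brighter than 96.4% of all probe sets at 48 h. The gene's other probe set, 231699_at, is brighter than 45% of them and was not called (0.06 ± 0.13 at 40 nM and 48 h).

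TNFAIP3 encodes a ubiquitin-editing enzyme that shuts off signalling upstream of the IkB kinase. At 24 h its values were 8.01, 8.06 and 8.19 at 40 nM, against 7.32, 7.1 and 7.09 in vehicle. The 48 h values were 7.12, 7.11 and 6.87 in vehicle, 8.91, 8.94 and 8.8 at 10 nM, and 9.03, 9.32 and 9.16 at 40 nM. Every treated array lay above every vehicle array of its time, and most of the rise at 48 h was already present at 10 nM. The changes were 0.92 ± 0.09 at 24 h, and at 48 h 1.85 ± 0.09 at 10 nM and 2.14 ± 0.09 at 40 nM (limma adjusted p = 3.43e-06, 4.81e-09 and 2.55e-09). A second probe set, 202643_s_at, rose too, by 1.07 ± 0.10, 1.70 ± 0.10 and 2.27 ± 0.10 in the same comparisons.

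TNIP1 encodes a ubiquitin-binding partner of the TNFAIP3 protein. At 24 h the values were 9.46, 9.51 and 9.65 at 40 nM, against 9.35, 9.22 and 9.21 in vehicle, a small rise of 0.28 ± 0.07 without overlap. This call was lost when the 24 h groups were fitted alone (limma adjusted p = 0.057). By 48 h the values were 9.44, 9.39 and 9.33 in vehicle, 10.28, 10.27 and 10.14 at 10 nM, and 10.78, 10.8 and 10.74 at 40 nM. The 48 h groups were in rising order without overlap, with changes of 0.84 ± 0.07 at 10 nM and 1.39 ± 0.07 at 40 nM (limma adjusted p = 4.18e-07 and 5.62e-09). Its dimmer second probe set, 243423_at, was called higher at 24 h (0.36 ± 0.12, limma adjusted p = 0.0436 over all probe sets) but not at 48 h, where both doses gave 0.09 ± 0.12.

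NFKBIE encodes IkB-epsilon, a slower inhibitor that binds RELA and REL dimers. Its values at 24 h were 6.91, 6.79 and 6.74 at 40 nM, against 6.49, 6.4 and 6.3 in vehicle. At 48 h the arrays gave 6.27, 6.14 and 6.19 in vehicle, 7.48, 7.44 and 7.35 at 10 nM, and 7.68, 7.73 and 7.77 at 40 nM. All groups of a time were separate, and the step between vehicle and 10 nM was the wider one. The change at 24 h was 0.42 ± 0.07, and at 48 h it was 1.23 ± 0.07 at 10 nM and 1.53 ± 0.07 at 40 nM (limma adjusted p = 0.000224, 1.04e-08 and 2.55e-09). The gene has a single probe set, 203927_at.

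NFKBIB, which encodes IkB-beta, differed from the other IkB genes in that its main probe set was not called in any comparison. On 214448_x_at the values were 7.23, 7.46 and 7.18 at 40 nM and 24 h, against 7.52, 7.33 and 7.52 in vehicle, and the groups overlapped. Without replicate 2 of the 40 nM arrays it was called lower at 24 h (-0.25, limma adjusted p = 0.0382), and the change then differed between the times (0.38, 0.0347). The 48 h arrays gave 7.7, 7.64 and 7.8 in vehicle, 7.71, 7.76 and 7.69 at 10 nM, and 7.71, 7.89 and 7.93 at 40 nM, and all 3 groups overlapped. The change at 40 nM and 48 h was 0.13 ± 0.09, with a 95% interval from -0.05 to 0.32. A second probe set, 214062_x_at, was lower at 24 h (-0.25 ± 0.06) and higher at 48 h (0.26 ± 0.06), called both times (limma adjusted p = 0.00866 and 0.0121 over all probe sets).

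Among the subunits, RELB, the partner of the processed NFKB2 product, had the largest change at 40 nM and 48 h on the main probe sets. At 24 h the main probe set of NFKB2 had the largest (1.02), followed by REL (0.92). The nearly as bright 209636_at of NFKB2 gave 0.45 there and was not called. The RELB values at 24 h were 6.05, 6.27 and 6.22 at 40 nM, against 5.82, 5.91 and 5.89 in vehicle, a rise of 0.31 ± 0.09. This rise no longer passed without replicate 2 of the 40 nM arrays (0.27, limma adjusted p = 0.062). The arrays at 48 h gave 6.08, 5.94 and 6 in vehicle, 6.81, 6.68 and 6.51 at 10 nM, and 7.45, 7.72 and 7.57 at 40 nM. The 3 groups at 48 h did not overlap, and the wider step lay between 10 nM and 40 nM. The changes against vehicle were 0.66 ± 0.09 at 10 nM and 1.58 ± 0.09 at 40 nM (limma adjusted p = 5.99e-05 and 2.47e-08).

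NFKB2, which encodes the precursor of the slower branch, was more variable. On 207535_s_at its values at 24 h were 6.07, 5.93 and 6.64 at 40 nM, against 5.13, 5.3 and 5.15 in vehicle, a change of 1.02 ± 0.16 (limma adjusted p = 0.000145). At 48 h they were 5.92, 6.06 and 5.81 in vehicle, 6.43, 6.56 and 6.27 at 10 nM, and 6.6, 6.56 and 6.93 at 40 nM. The treated arrays lay above vehicle at both times, and those of 10 nM and 40 nM met at 6.56. The changes at 48 h were 0.49 ± 0.16 at 10 nM and 0.77 ± 0.16 at 40 nM (limma adjusted p = 0.0326 and 0.00263). The nearly as bright 209636_at gave 0.45 ± 0.17 at 24 h, which was not called (limma adjusted p = 0.078), and 1.28 ± 0.17 at 40 nM and 48 h. The third, 211524_at, is brighter than 3.26% of all probe sets at 48 h and gave 0.02 ± 0.11.

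REL encodes c-Rel, a subunit best known from lymphocytes. Its values at 24 h were 7.19, 7.08 and 7.41 at 40 nM, against 6.56, 6.26 and 6.11 in vehicle, a change of 0.92 ± 0.11 (limma adjusted p = 1.3e-05). The 48 h values were 7.36, 7.34 and 7.24 in vehicle, 7.58, 7.67 and 7.5 at 10 nM, and 7.68, 7.82 and 7.62 at 40 nM. The vehicle arrays were the lowest at each time, but the gap was wide at 24 h and narrow at 48 h. The change was 0.27 ± 0.11 at 10 nM, which did not pass (limma adjusted p = 0.088), and 0.39 ± 0.11 at 40 nM and 48 h, which did (0.0186). The 10 nM change was called with cyclic loess (limma adjusted p = 0.0429), with array weights (0.00282), with the compared groups alone (0.0227) and without replicate 1 of vehicle at 24 h (0.0333). The 40 nM call at 48 h was lost without replicate 3 of vehicle (0.35, limma adjusted p = 0.0737), without replicate 2 of 40 nM (0.34, 0.0823), with array medians subtracted (0.0516) and when its probe sets were averaged (0.0556). Of 4 further REL probe sets, 3 were called higher at 24 h, with changes of 0.99, 0.64 and 0.50. At 40 nM and 48 h those 3 gave 0.42, 0.50 and 0.19 and were not called.

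NFKB1, which encodes the other precursor and its processed subunit, did not pass at 24 h. The values were 7.47, 7.61 and 7.61 at 40 nM, against 7.61, 7.64 and 7.59 in vehicle. By 48 h the values were 8.14, 8.06 and 8.04 in vehicle, 8.05, 7.96 and 7.86 at 10 nM, and 8.5, 8.53 and 8.48 at 40 nM. Only the 40 nM arrays at 48 h stood out among those of their time. Their change was 0.42 ± 0.06 against vehicle and 0.55 ± 0.06 against 10 nM (limma adjusted p = 0.000169 and 1.32e-05), whereas 10 nM against vehicle gave -0.12 ± 0.06 (0.18).

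RELA, the subunit of the most common activating dimer, passed in none of the 5 comparisons in the limma test. Its values at 24 h were 7.71, 7.91 and 7.8 at 40 nM, against 8.06, 7.94 and 7.9 in vehicle, a change of -0.16 ± 0.07 (limma adjusted p = 0.0852). At 48 h the arrays gave 8.74, 8.7 and 8.69 in vehicle, 8.57, 8.65 and 8.48 at 10 nM, and 8.6, 8.68 and 8.6 at 40 nM. The treated arrays at 48 h lay just below vehicle without overlap. The 95% interval of the 40 nM change at 48 h ran from -0.23 to 0.06 on the log2 scale, so a rise as large as those of RELB or NFKBIA lies outside it. A second probe set, 209878_s_at, gave -0.24 ± 0.13 at 24 h and 0.08 ± 0.13 at 40 nM and 48 h, with no call. At 24 h RELA was called lower when its probe sets were averaged (-0.20, limma adjusted p = 0.033), and also with array weights (0.0207), without the dimmest 40% of genes (0.041) and without replicate 2 of the 40 nM arrays (0.0346).

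**Figure D2:**
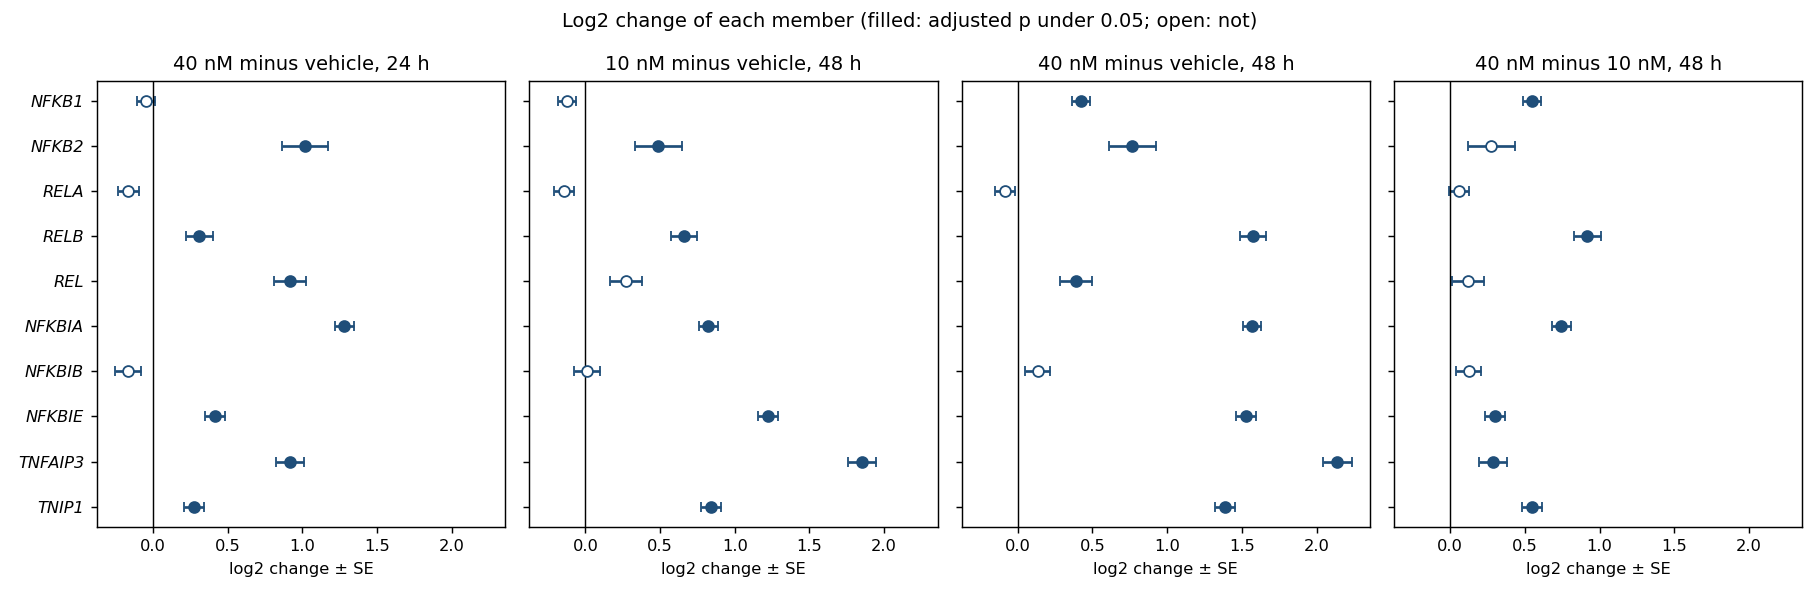
Log2 change with its standard error (x axis) of the 10 genes (y axis) in 4 comparisons, filled where the adjusted p is under 0.05. RELA and NFKBIB are open in every panel, and TNFAIP3 at 40 nM and 48 h lies farthest right, at 2.14.

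The 12 probe sets that are not the brightest of their gene were tested in a fit over all 54613 probe sets that are not controls. At 40 nM and 24 h 5 of them were called higher and 1 lower, and at 40 nM and 48 h 3 were called higher. Over all these probe sets 10.3% were called higher and 10.7% lower at 24 h, and 6.49% and 6.02% at 48 h. At 40 nM and 48 h the dimmer 211524_at of NFKB2, 231699_at of NFKBIA and 206035_at of REL gave 0.02, 0.06 and -0.14. Also dimmer, 239486_at of REL and 243423_at of TNIP1 gave 0.19 and 0.09 there, not called, but both were called higher at 24 h (0.50 and 0.36).

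**Figure D3:**
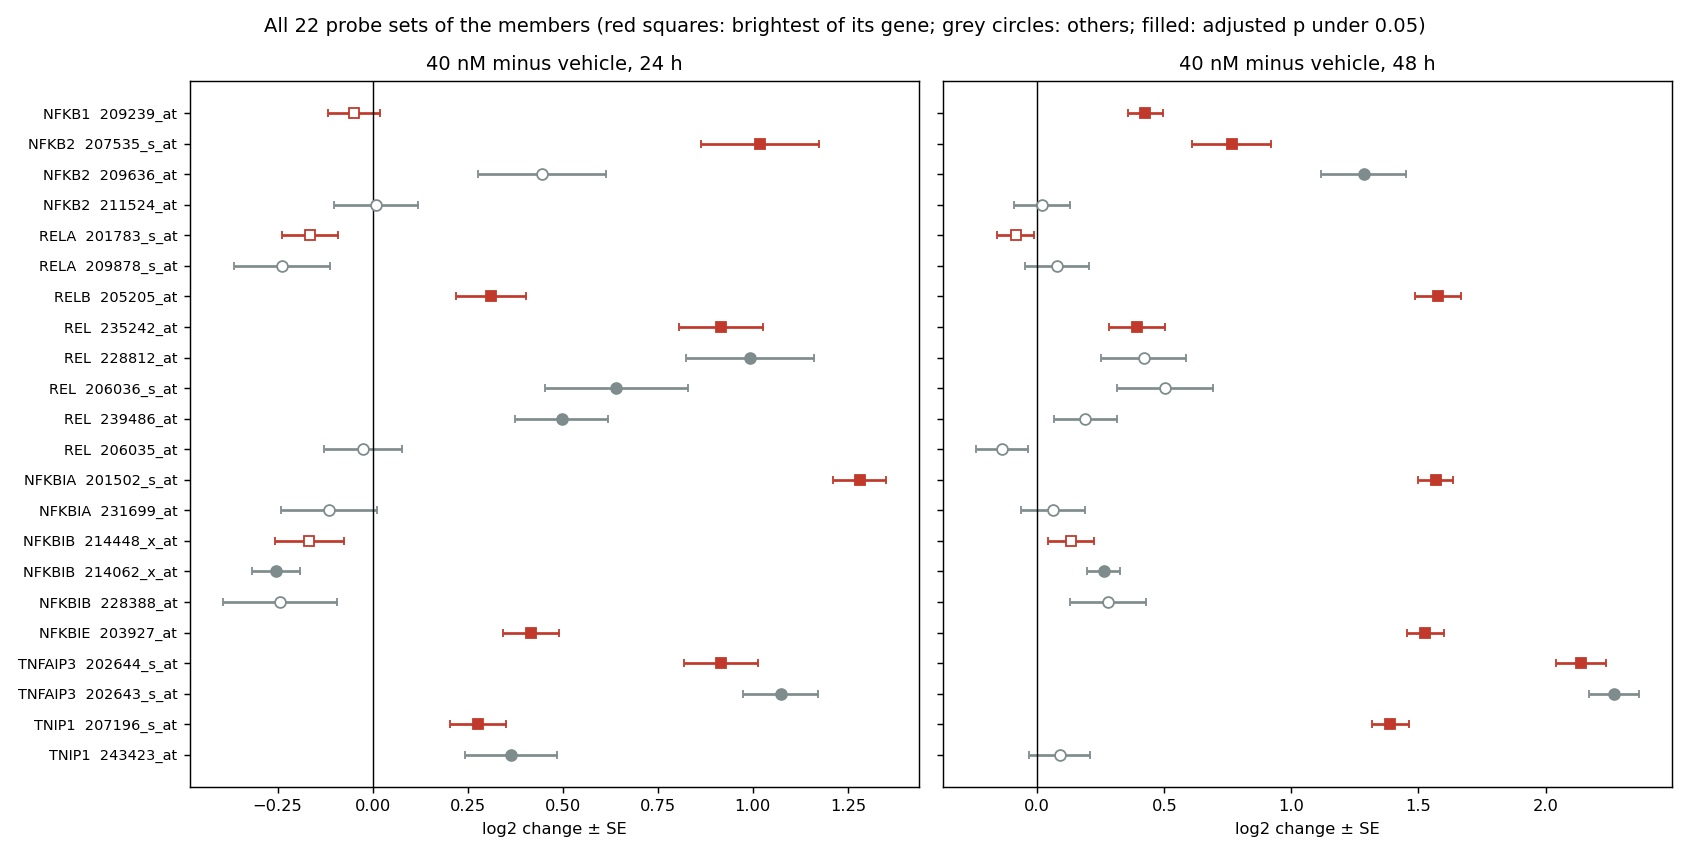
Log2 change with standard error (x axis) of all 22 probe sets (y axis) at 40 nM against vehicle, at 24 h (left) and 48 h (right). Red squares mark the brightest probe set of each gene and grey circles the others, filled where the adjusted p over all probe sets is under 0.05; both TNFAIP3 probe sets lie past 2 at 48 h, while the second ones of NFKBIA and TNIP1 lie near 0.

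The doses were compared at 48 h, with the reservation on the 10 nM arrays given above. At 10 nM 6 of the 10 were called higher than in vehicle by limma and 0 lower (0 also at an unadjusted p under 0.05), against 14.4% of all genes higher, 11.9% lower and 26.3% either way. The median log2 change of the 10 was 0.57, beside 0.0042 over all genes. The arrays of the groups did not overlap in 8 of the 10, with 7 higher and RELA lower, against 21.5% of all genes higher, 18.6% lower and 40.2% either way. The NFKB2 call at 10 nM was lost without replicate 1 or 3 of vehicle, without replicate 1 or 2 of 10 nM and with dim values set to a floor (limma adjusted p up to 0.122). Its nearly as bright 209636_at rose by 1.03 ± 0.17 at 10 nM (limma adjusted p = 0.000356 over all probe sets), and the dim 211524_at gave 0.03 ± 0.11, not called. At 40 nM 6 were called higher than at 10 nM and 0 lower (0 also at an unadjusted p under 0.05), against 11.9% of all genes higher, 14.5% lower and 26.4% either way. These were NFKB1, RELB, NFKBIA, NFKBIE, TNFAIP3 and TNIP1, and in all 6 the arrays of the doses did not overlap, against 18.1% of all genes higher, 21.8% lower and 39.9% either way. RELB had the widest difference between the doses, 0.92 ± 0.09, followed by NFKBIA at 0.74 ± 0.06 (limma adjusted p = 3.35e-06 and 8.28e-07). TNIP1 differed by 0.55 ± 0.07, and NFKBIE and TNFAIP3 by 0.30 ± 0.07 and 0.29 ± 0.09 (limma adjusted p = 3.05e-05, 0.00374 and 0.0383). The TNFAIP3 call was lost under 8 of 25 other settings (limma adjusted p up to 0.171), among them without any 1 of the 10 nM arrays (0.24 to 0.31) and without replicate 2 (0.21) or 3 (0.29) of 40 nM. Its second probe set, 202643_s_at, differed by 0.57 ± 0.10 between the doses (limma adjusted p = 0.000627 over all probe sets). For REL and NFKB2 the intervals of the difference on the main probe set, -0.11 to 0.35 and -0.06 to 0.61, include 0. Called higher at 40 nM than at 10 nM were also 206036_s_at of REL (0.59 ± 0.19) and 214062_x_at of NFKBIB (0.25 ± 0.06), with limma adjusted p = 0.0385 and 0.0119 over all probe sets.

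In 5 of the 10 genes (RELB, NFKBIA, NFKBIE, TNFAIP3 and TNIP1) vehicle, 10 nM and 40 nM lay in rising order with no overlap at 48 h. Over all genes 2.37% had that pattern. In 0 of the 10 did they lie in falling order, a pattern of 1.78% of all genes.

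The 40 nM changes at the 2 times were compared by subtracting the change at 24 h from that at 48 h, which cancels an offset common to a time. In 6 of the 10 the change was higher at 48 h than at 24 h and in 1 it was lower, against 9.18% and 8.11% of all genes and 17.3% either way. RELB (1.27 ± 0.12), TNFAIP3 (1.22 ± 0.13), NFKBIE (1.11 ± 0.10) and TNIP1 (1.11 ± 0.09) differed most (limma adjusted p = 1.04e-05, 2.48e-05, 3.33e-06 and 3.2e-06). NFKB1 differed by 0.47 ± 0.09 (limma adjusted p = 0.0015). NFKBIA differed by 0.29 ± 0.09 (limma adjusted p = 0.0371), a call lost under 18 of 27 other settings, with limma adjusted p up to 0.657. Among these were the fits without replicate 1 or 2 of either group at 24 h, without any 1 array of vehicle or 40 nM at 48 h, without replicate 1 of 10 nM and without all 10 nM arrays, which gave 0.23 to 0.30. REL is the gene with the smaller change at 48 h, by -0.53 ± 0.15 (limma adjusted p = 0.0299), and that call was lost under 9 of 27, with limma adjusted p up to 0.117. It was lost without replicate 2 (-0.50) or 3 (-0.43) of vehicle or replicate 3 of 40 nM (-0.44) at 24 h, and without replicate 1 (-0.50) or 2 (-0.51) of vehicle or replicate 1 (-0.51) or 3 (-0.48) of 40 nM at 48 h. On its second probe set NFKB2 also differed, by 0.84 ± 0.24 (limma adjusted p = 0.0375 over all probe sets), although its brightest gave -0.25 ± 0.22. NFKBIB differed on 214062_x_at by 0.51 ± 0.09 (limma adjusted p = 0.00157 over all probe sets), while its brightest gave 0.30 ± 0.12 and was not called.

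**Figure D4:**
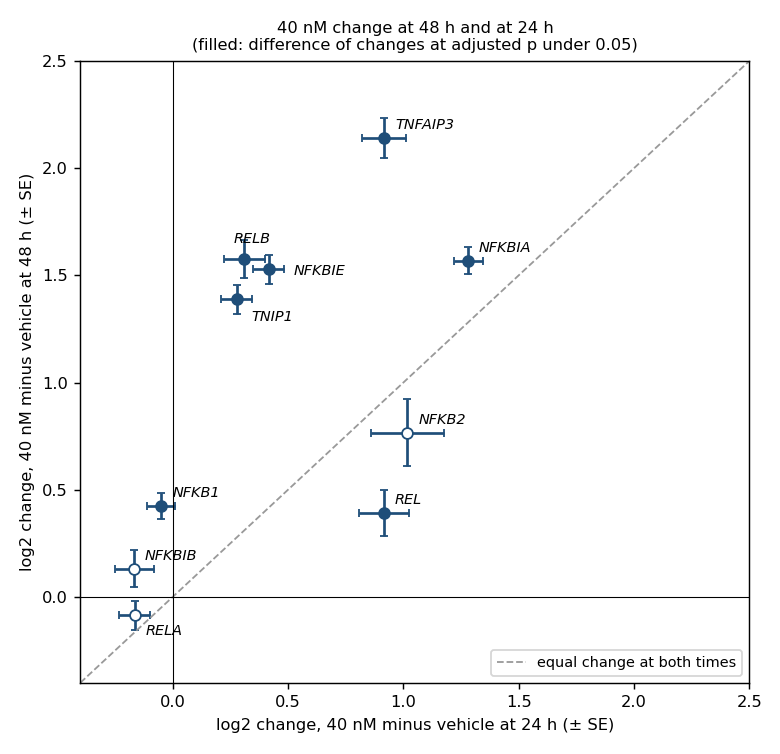
Log2 change at 40 nM against vehicle at 48 h (y axis) and at 24 h (x axis), with standard errors, 1 point per gene; the dashed line marks equal changes, and filled points are those whose difference has an adjusted p under 0.05. TNFAIP3, RELB, NFKBIE and TNIP1 lie well above the line, NFKBIA just above it, and REL below it.

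Vehicle levels at the 2 times, which differ over all probe sets as given above, were 7.31 at 48 h and 6.31 at 24 h for REL, the widest gap of the 10. RELA stood at 8.71 and 7.97, and NFKB2 at 5.93 and 5.20. For NFKBIE (6.2 and 6.4) and TNFAIP3 (7.03 and 7.17) the 48 h level was the lower one. The median gene was higher by 0.35 at 48 h than at 24 h.

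The listed target genes of NF-kB, mostly chemokines, cytokines and survival genes, were mostly higher at 48 h. At 40 nM and 48 h 26 of 29 measured targets were called higher and 1 lower, with a median change of 1.59. At 24 h 10 were higher and 5 lower, with a median of 0.19, and at 10 nM and 48 h 22 were higher and 1 lower, with a median of 0.66. Over all genes the shares called higher and lower were 10.5% and 10.7% at 40 nM and 48 h, 14.8% and 16.7% at 24 h, and 14.4% and 11.9% at 10 nM. The chemokine CCL20 averaged 11.02 ± 0.05 at 40 nM and 48 h, against 7.60 ± 0.08 in vehicle, and CCL2 and the survival gene BCL2A1 rose by 3.19 ± 0.09 and 2.81 ± 0.15. The chemokine CCL5 averaged 4.70 ± 0.24 at 40 nM and 24 h, against 4.68 ± 0.24 in vehicle. At 48 h it averaged 5.32 ± 0.10 in vehicle, 9.0 ± 0.03 at 10 nM and 8.30 ± 0.04 at 40 nM. CCL5 is 1 of 5 targets called lower at 40 nM than at 10 nM (-0.71 ± 0.12), beside 18 called higher, of 29 measured. Between the doses 14.5% of all genes were called lower, which is near the share of the targets, and 11.9% higher. At 24 h PTGS2, which encodes an inducible prostaglandin synthase, had the largest rise of the list, 2.07 ± 0.14. The targets whose 40 nM change differed most between the times were CCL5 (2.96 ± 0.17), BCL2A1 (2.72 ± 0.21), the cytokine gene IL1A (2.34 ± 0.20) and the adhesion molecule gene VCAM1 (2.33 ± 0.21). VCAM1 averaged 6.76 ± 0.17 at 40 nM and 6.42 ± 0.37 in vehicle at 24 h. At 48 h it averaged 4.38 ± 0.07 in vehicle, 8.48 ± 0.15 at 10 nM and 7.05 ± 0.11 at 40 nM.

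Genes of the IkB kinase and of the signalling above it had smaller median changes. Of 26 measured, 9 were higher and 3 lower at 40 nM and 24 h (median 0.11), and 13 higher and 3 lower at 40 nM and 48 h (median 0.22), against 14.8% of all genes higher and 16.7% lower at 24 h and 10.5% and 10.7% at 48 h. IL1R1, the interleukin 1 receptor, rose by 1.21 ± 0.15 at 24 h and 0.80 ± 0.15 at 48 h. MAP3K14, the kinase of the slower branch, rose by 0.82 ± 0.07 at 24 h. RBCK1, part of the linear ubiquitin ligase, and the kinase gene IRAK1 were lower at 24 h (-0.71 ± 0.06 and -0.50 ± 0.05). At 48 h the kinase RIPK2 and the ubiquitin ligase BIRC2 rose by 0.67 ± 0.07 and 0.58 ± 0.07, and the adaptor TRAF5 was lower (-0.52 ± 0.09). The 40 nM changes of MALT1 (0.67 ± 0.11) and BIRC2 (0.61 ± 0.09) were higher at 48 h than at 24 h, and those of TRAF5 (-0.55 ± 0.13) and MAP3K14 (-0.36 ± 0.11) lower.

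Other IkB family members, brakes and co-regulators were called in both directions. Of 16 measured, 1 was higher and 4 lower at 40 nM and 24 h (median -0.10), and 5 were higher and 4 lower at 48 h (median 0.03). Over all genes 31.5% were called either way at 24 h, which is close to the share of this list, and 21.3% at 48 h. At 10 nM 2 were higher and 3 lower (median 0.04), against 14.4% of all genes higher and 11.9% lower. Among these 3 was the IkB family gene NFKBIZ, which changed by -1.20 ± 0.09 at 10 nM and by 0.34 ± 0.09 at 40 nM and 48 h. Between the doses NFKBIZ differed by 1.54 ± 0.09. At 24 h TAX1BP1, an adaptor of the TNFAIP3 protein, rose by 0.48 ± 0.08, and the ubiquitin ligase ITCH (-0.46 ± 0.07) and PDLIM2 (-0.42 ± 0.07), which promotes RELA turnover, were lower. At 48 h COMMD1 (-0.60 ± 0.09), PDLIM2 (-0.59 ± 0.07) and the deubiquitinase OTUD7B (-0.53 ± 0.07) were lower. TRAF1, an NF-kB target that modulates receptor signalling, was lower at 24 h (-0.37 ± 0.08) and higher at 48 h (0.50 ± 0.08), and the changes differed (0.87 ± 0.12, limma adjusted p = 0.000146). The change of the deubiquitinase CYLD was higher at 48 h than at 24 h by 0.53 ± 0.15, and that of COMMD1 was lower (-0.44 ± 0.12).

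**Figure D5:**
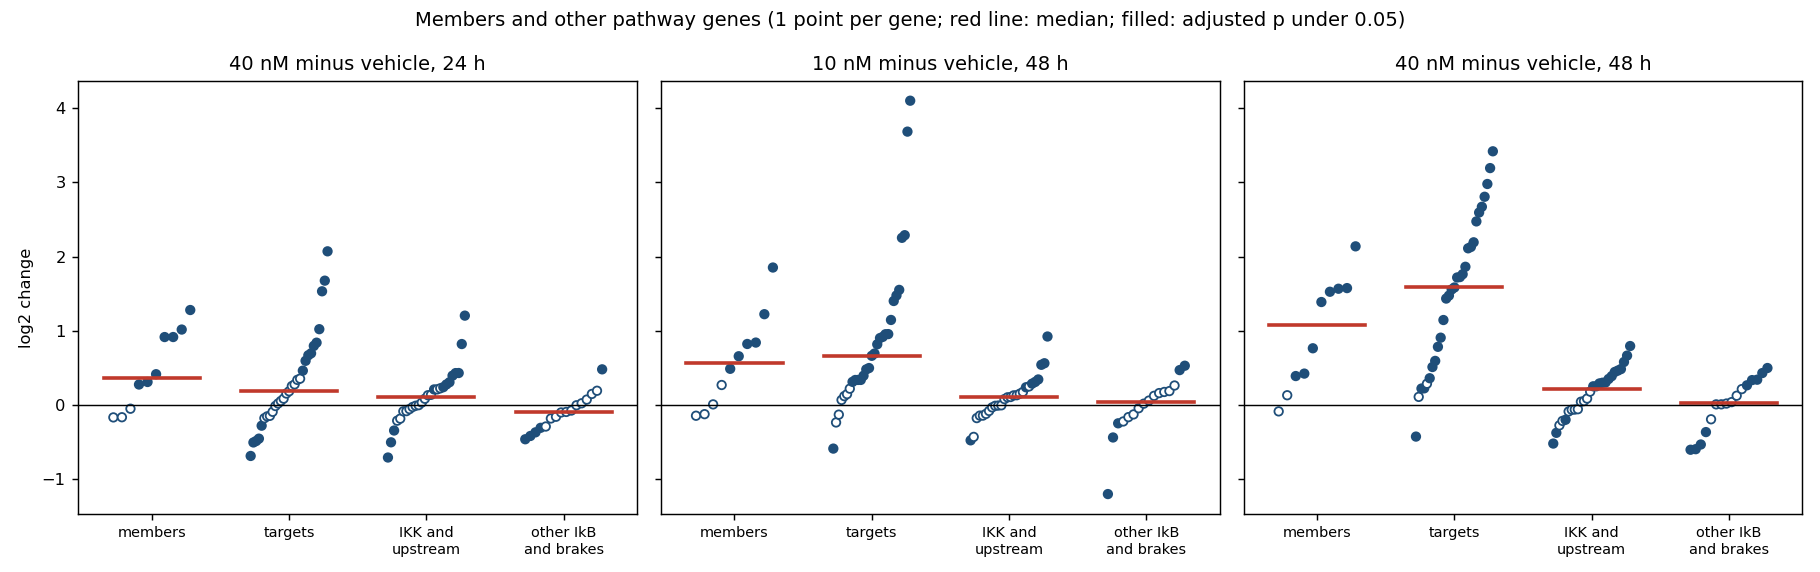
Log2 change (y axis) of the 10 genes and of 3 lists of other pathway genes (x axis) in the 3 comparisons with vehicle, 1 point per gene, filled where the adjusted p is under 0.05, with red lines at the medians. At 40 nM and 48 h the medians are 1.08 for the 10 genes and 1.59 for the targets, and 0.22 and 0.03 for the other lists.

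Genes with the most similar pattern were sought for TNFAIP3 and RELB, the members with the widest range of group means at 48 h. The measure was Pearson's r over the 15 arrays after subtracting the vehicle mean of the same time, among 689 genes with a range of at least 1. It is a description, since the arrays share groups and scaling. Nearest to TNFAIP3 were PDZK1IP1 (r = 0.993), TESC (0.989), MICB (0.986), LACC1 (0.986) and SPP1 (0.983). Nearest to RELB were C1QTNF1 (r = 0.984), SLC2A6 (0.979), the chemokine gene CXCL2 (0.975), ASPHD1 (0.974) and DRAM1 (0.973). PDZK1IP1 changed by 2.01 at 10 nM and 2.15 at 40 nM at 48 h, beside 1.85 and 2.14 for TNFAIP3, and CXCL2 by 0.82 and 1.72, beside 0.66 and 1.58 for RELB.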

How the data were processed

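Expression was measured in A549 cells on 15 arrays, 3 in each of 5 groups taken from the sample titles. The values are log2 values as deposited, and the submitters' processing notes list RMA and the Affymetrix Expression Console, with versions not given in the sources used here. Probe sets were named from the platform annotation, in which 41091 had 1 symbol, 1801 had several and 11721 were unnamed here, and symbols were updated through gene IDs for 41037. From these values limma 3.58.1 in R 4.3.3 (lmFit, eBayes, 10 residual degrees of freedom) gave all tests, after it had been tested on simulated data. On arrays there is no read depth, and the number of arrays limits the precision; over all genes the standard error of a log2 difference had a median of 0.097. Correlations between arrays of a group were 0.993 or higher. Same-numbered replicates did not deviate together: their correlation was over 0.1 in 10 of 30 pairs. The genes, the 3 lists of other pathway genes, the markers and the rule for similar genes were chosen with earlier results of these data known. Named genes were all 10 members, up to 4 called genes with the largest change in each list and 40 nM comparison, and the 5 genes most similar to each of 2 members. CCL5 and VCAM1 at 10 nM, NFKBIZ, PTPRC, CD14, COL1A1, KRT18 and EPCAM were named beside that rule. No single-symbol probe set measured RIPK1, TRAF2, IRAK4, BCL3, BIRC3, ZC3H12A, SPATA2 or CSF2. Promoter sequences are RefSeq's, and the array table holds no coordinates.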

Additional observations from a re-analysis of the deposited data

Results flagged for a closer look

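In 7 of the 10 genes the change at 40 nM differed between 48 h and 24 h by limma's test of the difference, against 17.3% of all genes. The differences of the log2 changes were 0.47 for NFKB1, 1.27 for RELB, -0.53 for REL, 0.29 for NFKBIA, 1.11 for NFKBIE, 1.22 for TNFAIP3 and 1.11 for TNIP1. Groups of 3 arrays are too small for a search for outlying arrays.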

How the results depend on the processing

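Over all settings, 1274 of 1370 recomputed changes of single genes kept their direction and side of the threshold. With the sign kept, 72 lost the call and 14 gained one. The other 10 changed sign, and some of these lost or gained a call as well. Many of the 1370 left out an array of a group outside the comparison, where the log2 change could not move. The total and the 72 also include the setting that only added a 2-fold requirement. The total is therefore no measure of how stable the calls are. With probe sets ending in _x_at or _s_at left out, 8 of the 10 genes were measured (RELA and TNFAIP3 were not). Of these, 4 were called at 40 nM and 24 h, 3 at 10 nM, 5 at 40 nM and 48 h and 3 between the doses. Over all genes measured in that setting, which are fewer than in the main fit, 4499, 3766, 2868 and 3733 were called. In that setting another probe set stands for NFKB2, NFKBIA, NFKBIB and TNIP1, and 5 values changed sign: NFKBIA gave -0.12 at 24 h and -0.091 between the doses, TNIP1 -0.0005 between the doses and -0.28 for the difference between the times, and NFKB2 0.84 for that difference. The other 5 sign changes were of values called neither before nor after: NFKB2 between the times gave 0.20 when probe sets were averaged, and NFKBIB at 10 nM, at 0.0093, gave -0.021 with cyclic loess, -0.012 with array weights, -0.028 without replicate 2 of vehicle and -0.011 without replicate 2 of 10 nM (-0.028 to 0.053 over all fits without 1 array); the cause was not tested. Asking also for a 2-fold change left 2 of the 10 at 24 h, 2 at 10 nM, 5 at 40 nM and 48 h, 0 between the doses and 4 for the difference between the times (548, 470, 240, 377 and 365 of all genes, in that order). Array weights called 8036 genes at 10 nM and 5851 for the difference between the times; the cause was not tested. Over 54613 probe sets in place of genes, 11512, 10421, 6830, 10233 and 5229 were called in the same 5 comparisons, where more features were tested. Leaving out each replicate in turn gave 7 to 8, 5 to 7, 7 to 8, 5 to 6 and 5 to 7 called genes among the 10, and 5632 to 6286, 4278 to 5513, 3329 to 4485, 4231 to 5515 and 2820 to 3527 over all genes. With the replicate number as a block, 7, 6, 8, 5 and 6 of the 10 and 5974, 4920, 3864, 4894 and 3052 of all genes were called; same-numbered arrays share only a number, with correlations from -0.463 to 0.504. Under the block TNFAIP3 between the doses (limma adjusted p = 0.0533) and NFKBIA between the times (0.0646) were not called. When probe sets were averaged, NFKBIB was called at 40 nM at 24 h (-0.22) and 48 h (0.22) and for the difference (0.45). The second probe sets of NFKBIA and TNIP1 were brighter than 45% and 49.9% of all probe sets at 48 h. Why they differed from the main ones was not tested.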
